A study of Homo sapiens with 32 samples.

Results

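The DNA replication machinery was followed as 46 genes of the 60107 in the count table, taken by symbol: the subunits of the origin recognition complex, the licensing factors, the MCM2 to MCM7 helicase and the factors that activate it, the replicative polymerases, the sliding clamp with its loader and the single-strand binding protein RPA, the enzymes of lagging strand maturation, and enzymes that supply deoxynucleotides. Each of the 46 symbols matched a single row of the table, and each passed the filter on low counts in every comparison. The study asked how human cells respond to camptothecin (CPT), which traps DNA topoisomerase I on DNA, and to loss of the checkpoint kinase ATM. RNA was sequenced from the 3′ ends of transcripts in 32 libraries of U2OS cells, a line from an osteosarcoma, and of HEK293T cells, an embryonic kidney line that carries a viral large T antigen. The U2OS libraries with titles numbered 26 to 29 were labelled CPT, those numbered 30 to 33 DMSO (the solvent), and each group held 4. CPT was given to U2OS cells at 400 nM for 24 h, and harvest followed after 48 h in fresh medium. HEK293T libraries 18 to 21 carried the label ATM KO (knockout). For RNA of this line the study describes an ATM inhibitor, at 9 µM. The ATM knockout lines it lists are of U2OS and HEK293 cells, not HEK293T. The labels alone do not tell knockout and inhibitor apart. Libraries 18 to 21 were set against DMSO libraries 22 to 25. The titles from 1 to 17 were labelled as 4 HEK293T CPT, 4 HEK293T DMSO, 4 U2OS ATM KO and 4 U2OS WT (wild type) libraries, and the methods describe the ATM knockouts as clones picked after CRISPR/Cas9 editing, without giving how many clones were sequenced.

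Before S phase, the origin recognition complex, CDC6 and CDT1 load the ring-shaped MCM2 to MCM7 helicase onto DNA, and geminin (GMNN) blocks reloading once replication has begun. The kinase CDC7 with its partner DBF4, together with CDC45, the GINS complex and MCM10, then turns the loaded ring into an active helicase. DNA polymerase alpha with primase starts each strand, polymerases epsilon and delta extend it on the clamp PCNA, and FEN1 and LIG1 join the pieces of the lagging strand. Many of these genes are known targets of E2F transcription factors, which are active when cells enter S phase and which are held back by RB family proteins in arrested cells.

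Library totals over genes lay between 1232674 and 6362433 counts, so that 3 counts corresponded to between 2.43 and 0.472 CPM, the count scaled to a common library total, a limit that covers counting error only. A score over 100 genes of each line, chosen among genes that differed by over 3 on the log2 scale between U2OS and HEK293T DMSO libraries 22 to 33, put the cell line of 14 of the 16 libraries with titles 1 to 17 against its label, and matched it for titles 1 and 17; the 16 later libraries, on which the score was built, all matched theirs. Titles 1 to 8 had U2OS scores and titles 10 to 17 HEK293T scores. The arms of those titles are therefore named by their labels, titles 1 and 17 entered alternatives only, and no direction for CPT or for ATM loss is drawn from them. ATM itself was not called in libraries labelled as knockouts. It stood at 36.5, 34.8, 28.6 and 27.9 CPM in the libraries labelled U2OS ATM KO against 25.3, 21.1 and 31.03 CPM in those labelled U2OS WT with titles 11, 13 and 15, and at 51.5, 52.5, 67.3 and 55.1 CPM in those labelled HEK293T ATM KO against 62.9, 72.9, 52.1 and 51.1 CPM in their DMSO controls. In titles 2, 4, 6 and 8, which have U2OS profiles, it was at 66.8, 61.2, 61.1 and 35.4 CPM against 78.2, 59.3 and 65.6 CPM in titles 3, 5 and 7 (-0.31, SE 0.19 on the log2 scale, not called). Where the edit lies is not given in the sources used here, so a count of 3′ tags checks no label. All 5 markers listed for U2OS cells were higher (CD44, ANXA1 and S100A6 among them), and all 3 for HEK293T cells lower (LIN28B, PAX2 and SALL2), in U2OS than in HEK293T DMSO libraries. The 5 U2OS markers were also all higher in U2OS CPT than in U2OS DMSO libraries (median log2 fold change 2.05), and the part of this in the results was not tested.

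In U2OS cells most of the replication machinery was lower after CPT. Of the 46 genes, 30 were lower than in DMSO and 0 were higher at an adjusted p under 0.05 (edgeR's quasi-likelihood test, Benjamini-Hochberg adjustment over 19080 genes), and 16 did not pass. Over all genes tested 15.3% were lower and 16.6% higher in the same comparison. The median log2 fold change of the 46 was -0.55, against 0.008 over all genes, and 42 lay below 0. In 30 of the 46 every CPT library stood below every DMSO library, a partly different set (ORC2 and not LIG1, for example), and this held for 14.6% of all genes. With the study's added cutoff of 1 on the log2 scale 7 remained (MCM6, MCM7, MCM2, GINS2, MCM5, RFC4 and POLD1), beside 5.5% of all genes. No member was higher at an unadjusted p under 0.05 either, where 36 of 46 members (78.3%) and 7839 of all genes (41.1%) differed, and DESeq2 called 29 lower and 0 higher. In RNA from whole cultures, fewer cells in S phase and less RNA per cell cannot be told apart.

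**Figure D1:**
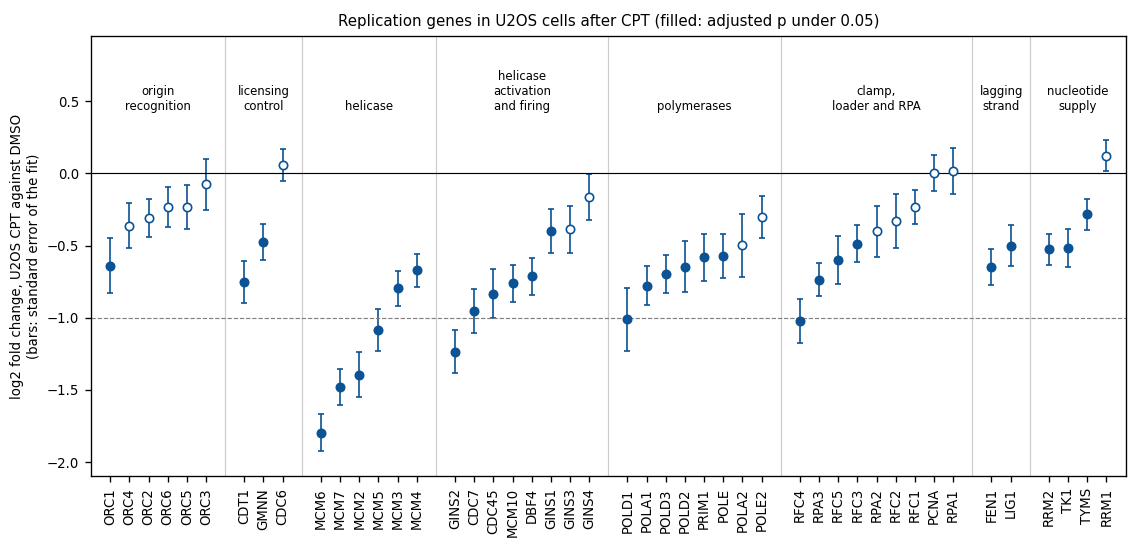
Log2 fold change of each of the 46 replication genes in U2OS CPT against DMSO libraries (4 against 4), grouped by role; bars are the standard error of the fit and filled points passed an adjusted p under 0.05. The 6 helicase genes lie between -1.797 and -0.67, while CDC6, PCNA, RPA1 and RRM1 lie at or just above 0.

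All 6 genes of the MCM2 to MCM7 ring were lower after CPT. MCM6, which had the largest fall of the 46, stood at 23.6, 22.5, 24.8 and 22.5 CPM in the CPT libraries and at 90.8, 78.6, 80.1 and 77.3 CPM in the DMSO libraries. Every CPT library was thus far below the lowest DMSO library (log2 fold change -1.797, SE 0.13, adjusted p = 1.33e-12). MCM7 was at 35.1, 36.7, 36.95 and 38.04 CPM against 97.2, 117, 90.6 and 107 CPM (log2 fold change -1.48, SE 0.12, adjusted p = 4.38e-11). MCM2 was at 42.5, 40.7, 44.03 and 47.2 CPM against 107, 168, 101 and 86.8 CPM, the second DMSO library being far above the rest (log2 fold change -1.39, SE 0.15, adjusted p = 1.54e-08). For MCM5 the values were 22.6, 18.2, 24.4 and 29.9 CPM and 47.4, 49.6, 50.7 and 55.04 CPM (log2 fold change -1.08, SE 0.14, adjusted p = 4.97e-07). MCM3 (-0.80, SE 0.12) and MCM4 (-0.67, SE 0.11) had smaller fitted changes and were lower too, and in both the groups again did not overlap. Added up, the 6 genes gave 344 ± 19.4 CPM (SD, n = 4) after CPT and 709.7 ± 56.3 CPM (SD, n = 4) in DMSO, or 48.5% of the control.

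**Figure D2:**
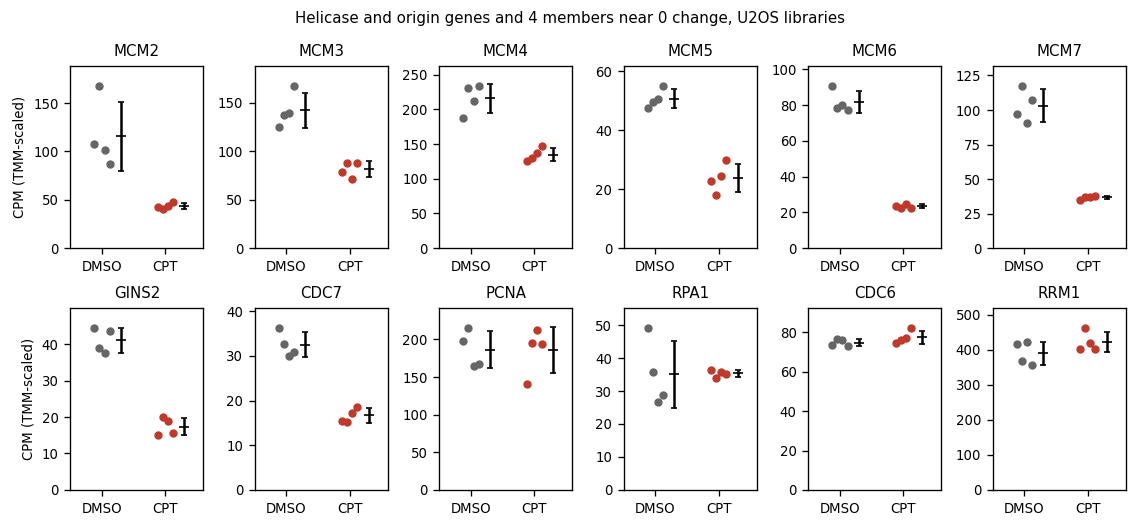
CPM of 12 replication genes in each U2OS library, DMSO in grey and CPT in red, with the mean and SD in black; each panel has its own axis from 0. In the 6 MCM genes, GINS2 and CDC7 the CPT libraries lie below all DMSO libraries, while in PCNA, RPA1, CDC6 and RRM1 the groups overlap.

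Of the 8 genes that activate the helicase, 6 were lower. GINS2, a subunit of the GINS complex that joins the helicase with CDC45, was at 15.2, 19.999, 18.9 and 15.5 CPM after CPT and at 44.5, 38.9, 37.4 and 43.5 CPM in DMSO (log2 fold change -1.24, SE 0.15, adjusted p = 7.22e-08). Of the other GINS subunits, GINS1 fell (-0.40, SE 0.15, adjusted p = 0.0431), while GINS3 (-0.39, SE 0.16) and GINS4 (-0.16, SE 0.16) did not pass the test. CDC7, the kinase that fires origins, stood at 15.5, 15.3, 17.3 and 18.7 CPM against 36.3, 32.7, 30.01 and 30.9 CPM (log2 fold change -0.95, SE 0.15, adjusted p = 9.11e-06). Its partner DBF4 (-0.71, SE 0.13), CDC45 (-0.83, SE 0.17) and MCM10 (-0.76, SE 0.13), which acts as the helicase starts to unwind DNA, were lower too. For each of the 6 lower genes every CPT library lay below every DMSO library.

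Fewer of the genes that mark and license origins were called. Among the 6 subunits of the origin recognition complex, ORC1 alone was lower, at 9.45, 8.36, 10.6 and 8.10 CPM against 13.8, 13.4, 15.5 and 14.4 CPM (log2 fold change -0.64, SE 0.19, adjusted p = 0.0108). ORC2 to ORC6 had log2 fold changes between -0.36 and -0.07 and did not pass. CDT1, which brings the helicase to origins, fell from 38.3 ± 3.04 to 22.6 ± 2.46 CPM (SD, n = 4 each; log2 fold change -0.75, SE 0.14, adjusted p = 0.000101), with 20.2, 24.7, 24.8 and 20.8 CPM in the CPT libraries and 41.003, 40.3, 34.3 and 37.5 CPM in the DMSO libraries. Its inhibitor GMNN was lower as well, at 37.8, 47.998, 50.3 and 41.9 CPM against 63.3, 64.4, 63.7 and 57.4 CPM (log2 fold change -0.48, SE 0.13, adjusted p = 0.00387). CDC6, the loading factor that works beside CDT1, was at 74.6, 75.996, 77.1 and 82.4 CPM against 73.8, 76.5, 76.1 and 72.9 CPM, a log2 fold change of 0.06 with an SE of 0.11.

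Among the polymerases 6 of 8 genes were lower. POLD1, the catalytic subunit of polymerase delta, was at 6.41, 6.55, 5.90 and 10.2 CPM after CPT and at 12.3, 18.9, 14.9 and 13.6 CPM in DMSO (log2 fold change -1.01, SE 0.22, adjusted p = 0.000532). These levels rest on few reads: there were between 15 and 29 counts in each CPT library. POLA1, the catalytic subunit of polymerase alpha, stood at 29.7, 36.4, 40.1 and 31.7 CPM against 59.7, 50.3, 61.9 and 64.7 CPM (log2 fold change -0.78, SE 0.13, adjusted p = 2.73e-05). POLD3 (-0.69, SE 0.13), POLD2 (-0.65, SE 0.18), the primase subunit PRIM1 (-0.58, SE 0.16) and POLE, the catalytic subunit of polymerase epsilon (-0.57, SE 0.15), also fell. The accessory subunits POLA2 (-0.50, SE 0.22) and POLE2 (-0.30, SE 0.15) did not pass.

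Of the 9 genes of the clamp, its loader and RPA, 4 were lower. RFC4, a subunit of the clamp loader, was at 60.1, 61.8, 48.4 and 64.1 CPM against 74.98, 125, 123 and 156 CPM, with the first DMSO library the lowest of its group (log2 fold change -1.02, SE 0.15, adjusted p = 4.03e-06). RFC3 (-0.49, SE 0.13) and RFC5 (-0.60, SE 0.16) fell, and RFC1 (-0.23, SE 0.12) and RFC2 (-0.33, SE 0.19) did not pass. RPA3, the small subunit of RPA, was at 74.6, 78.5, 86.1 and 84.5 CPM against 127, 154, 128 and 133 CPM (log2 fold change -0.74, SE 0.12, adjusted p = 6.43e-06). The large subunit RPA1 gave 0.02 with an SE of 0.16, and RPA2 -0.40 with an SE of 0.17. PCNA, the clamp, showed no detectable difference: it was at 141, 195, 213 and 194 CPM after CPT and 199, 216, 165 and 167 CPM in DMSO (log2 fold change 0.003, SE 0.13).

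Both enzymes of lagging strand maturation were lower. The flap nuclease FEN1 was at 106, 125, 111 and 82.4 CPM against 189, 161, 169 and 151 CPM (log2 fold change -0.65, SE 0.12, adjusted p = 0.000104). DNA ligase LIG1 was at 34.1, 34.2, 41.7 and 41.2 CPM against 41.003, 66.2, 53.2 and 55.04 CPM, where the first DMSO library lay below 2 of the CPT libraries (log2 fold change -0.50, SE 0.14, adjusted p = 0.00684). Of the 4 enzymes of deoxynucleotide supply, 3 were lower. RRM2, the subunit of ribonucleotide reductase that follows the cell cycle, was at 98.2, 104, 95.5 and 93.3 CPM against 135, 148, 135 and 149 CPM (log2 fold change -0.53, SE 0.11, adjusted p = 0.000331). Thymidine kinase TK1 was at 36.4, 33.1, 40.9 and 42.97 CPM against 51.8, 63.4, 56.6 and 49.5 CPM (log2 fold change -0.52, SE 0.13, adjusted p = 0.00268), and thymidylate synthase TYMS had a log2 fold change of -0.28 (SE 0.11, adjusted p = 0.0395). The large reductase subunit RRM1 was at 401, 464, 420.2 and 404 CPM against 416, 368, 421 and 356 CPM, with no call (log2 fold change 0.12, SE 0.11).

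Other genes around replication were followed in lists chosen, like the members, with earlier results known. Of 18 accessory factors of forks and origins 14 were lower and 0 higher (median log2 fold change -0.60). TIMELESS, which steadies replication forks, was at 64.1, 54.9, 66.04 and 57.1 CPM against 120.4, 132, 126 and 133 CPM (log2 fold change -1.07, SE 0.12, adjusted p = 8.78e-09), and the MCM-binding protein MCMBP fell as well (-0.83, SE 0.16). Of 6 genes of chromatin assembly behind the fork 4 were lower, among them the histone chaperones ASF1B (-0.98, SE 0.17) and CHAF1A (-0.92, SE 0.14). Of 11 other genes of nucleotide synthesis 4 were lower and 1 higher. DUT, which removes dUTP, stood at 97.8, 108, 93.2 and 97.2 CPM against 239, 194, 218 and 161 CPM (log2 fold change -1.02, SE 0.12, adjusted p = 6e-08). NME1 was the one higher (0.72, SE 0.11). Of 9 further subunits and paralogs 1 was lower (POLE3, -0.63, SE 0.13) and 1 higher. The higher one was RRM2B, the p53-inducible small subunit of ribonucleotide reductase, at 216, 231, 223 and 257 CPM after CPT and 84.6, 57.5, 63.1 and 52.2 CPM in DMSO (log2 fold change 1.86, SE 0.13, adjusted p = 7.85e-13). Of 10 translesion and repair polymerases only POLH passed, at 19.2, 23.6, 23.6 and 28.9 CPM against 10.8, 10.3, 11.4 and 12.1 CPM (log2 fold change 1.09, SE 0.17, adjusted p = 9.41e-06).

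General markers of dividing and of arrested cells moved with the machinery in the same libraries. MKI67, found in cycling cells, was at 349, 396, 426 and 367 CPM after CPT against 679, 764, 898 and 1056 CPM in DMSO (log2 fold change -1.14, SE 0.12, adjusted p = 9.01e-09), and CCNB1 (-0.88, SE 0.11) and TOP2A (-0.68, SE 0.12) were lower. CDKN1A, which encodes the inhibitor p21, was at 498, 461, 441 and 441 CPM against 99.3, 91.6, 96.2 and 105 CPM (log2 fold change 2.24, SE 0.11, adjusted p = 1.85e-16), and MDM2, a target and inhibitor of p53, rose too (adjusted p = 1.17e-15), at 539, 569, 514 and 532 CPM against 137, 130.2, 139.5 and 135 CPM. The part of the cycling fraction of the cultures in the fall of the replication genes was not tested. Scaling by library totals in place of TMM shifted the median of all genes to -0.16 on the log2 scale. That of the members became -0.72, with 39 members lower and 0 higher. The share of all genes lower with this scaling is not given here, so the count of 39 is not read as a stronger result about the members.

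Promoter windows were searched for the letters of known cell cycle motifs, as the genes moved together. RefSeq windows on GRCh38.p14, from 250 bases before to 50 bases after the transcription start, were at hand for 40 of the 46 genes, and those of MCM4, MCM5, GINS4, RPA2, RPA3 and POLD3 were not used. An E2F-type word (TTTCCCGC, TTTGGCGC, TTTCGCGC or TTTGCCGC on either strand) occurred in 18 of 40 windows (45%), against 3.33% of 27305 windows of all genes. Among genes lower in U2OS cells after CPT it occurred in 12 of 26 (46.2%), and among those not called in 6 of 14 (42.9%). The CCAAT box (CCAAT) occurred in 22 of 40 (55%) against 35.7% of all, and the CHR element (TTTGAA) in 2 of 40 (5%) against 15.4%. The windows of the 3 genes with the largest falls and of 3 with changes nearest to 0 are given 5′ to 3′ on the strand of the gene, with E2F-type words in capitals. Words on opposite strands that overlap were counted separately. They lie at chr2:135876394-135876693 (minus strand), chr7:100101348-100101647 (minus strand), chr3:127598161-127598460 (plus strand), chr20:5126573-5126872 (minus strand), chr17:1829755-1830054 (plus strand) and chr17:40287629-40287928 (plus strand).
MCM6: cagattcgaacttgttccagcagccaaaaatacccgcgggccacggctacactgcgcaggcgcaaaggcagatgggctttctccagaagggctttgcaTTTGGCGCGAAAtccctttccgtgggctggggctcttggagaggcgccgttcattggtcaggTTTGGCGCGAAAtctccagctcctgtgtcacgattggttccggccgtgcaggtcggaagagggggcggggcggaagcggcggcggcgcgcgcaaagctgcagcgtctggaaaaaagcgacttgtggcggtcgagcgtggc
MCM7: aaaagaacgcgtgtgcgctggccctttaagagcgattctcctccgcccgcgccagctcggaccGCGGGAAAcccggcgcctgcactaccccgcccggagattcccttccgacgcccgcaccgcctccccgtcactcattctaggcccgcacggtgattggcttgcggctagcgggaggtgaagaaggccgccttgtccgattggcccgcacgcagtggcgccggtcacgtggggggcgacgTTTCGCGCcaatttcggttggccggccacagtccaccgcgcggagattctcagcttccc
MCM2: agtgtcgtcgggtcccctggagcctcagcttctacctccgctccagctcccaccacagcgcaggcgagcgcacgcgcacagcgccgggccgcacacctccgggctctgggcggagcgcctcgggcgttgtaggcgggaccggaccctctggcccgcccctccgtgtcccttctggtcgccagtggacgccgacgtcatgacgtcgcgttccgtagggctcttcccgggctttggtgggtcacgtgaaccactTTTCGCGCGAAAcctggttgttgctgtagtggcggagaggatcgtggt
PCNA: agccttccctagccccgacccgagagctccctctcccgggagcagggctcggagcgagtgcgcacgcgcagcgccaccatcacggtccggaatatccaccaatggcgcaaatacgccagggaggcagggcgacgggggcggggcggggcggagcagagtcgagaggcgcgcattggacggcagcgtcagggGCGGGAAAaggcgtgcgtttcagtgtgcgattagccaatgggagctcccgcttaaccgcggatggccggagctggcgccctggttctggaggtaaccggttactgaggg
RPA1: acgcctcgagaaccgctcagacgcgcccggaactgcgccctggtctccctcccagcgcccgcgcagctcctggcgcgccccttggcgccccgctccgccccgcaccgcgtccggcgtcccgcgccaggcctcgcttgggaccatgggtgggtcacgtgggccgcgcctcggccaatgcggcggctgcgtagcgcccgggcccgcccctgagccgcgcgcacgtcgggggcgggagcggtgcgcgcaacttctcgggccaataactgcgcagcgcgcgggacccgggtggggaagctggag
CDC6: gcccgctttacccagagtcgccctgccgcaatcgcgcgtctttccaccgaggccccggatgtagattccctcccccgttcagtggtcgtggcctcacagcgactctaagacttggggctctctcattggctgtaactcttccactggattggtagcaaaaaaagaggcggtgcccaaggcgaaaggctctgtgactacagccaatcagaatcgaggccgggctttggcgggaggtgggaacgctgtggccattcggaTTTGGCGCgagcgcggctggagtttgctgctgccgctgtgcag
MCM6 held 4 matches, at 152, 148, 90 and 86 bases before the start, and MCM7 held 2, at 187 and 9 bases before it. MCM2 held 2 overlapping matches, at 3 and 7 bases after the start. PCNA, with no detectable change, held 1, at 59 bases before the start, CDC6 held 1, at 8 bases after it, and RPA1 held 0. A match of letters is a description of the window and not a bound site.

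In HEK293T cells the libraries labelled ATM KO, for which the study describes an ATM inhibitor, did not differ detectably from DMSO in any replication gene. Of the 46 genes 0 were lower and 0 higher by edgeR's quasi-likelihood test, and over all 18413 genes tested 0.00543% were lower and 0% higher. At an unadjusted p under 0.05 there were 4 of 46, beside 1019 of all genes, and edgeR's likelihood ratio test and DESeq2 also called 0 members. Log2 fold changes ran from -0.33 (CDC7, SE 0.11, adjusted p = 0.851) to 0.30 (POLA2, SE 0.15, adjusted p = 0.894), with a median of -0.02. CDC7 stood at 65.9, 82.3, 57.4 and 75.3 CPM in these libraries and at 83.4, 101, 89.7 and 82.02 CPM in DMSO, and the highest of the first group lay above the lowest of the second. MCM6 was at 111, 98.2, 106 and 107 CPM against 96.7, 80.2, 101 and 96.96 CPM, and MCM2 at 163, 165, 129 and 179.7 CPM against 201, 173, 209 and 165 CPM. The summed MCM2 to MCM7 signal was 879 ± 48.4 CPM against 883 ± 35.5 CPM (SD, n = 4 each). The marker genes MKI67, CCNB1, TOP2A, CDKN1A and MDM2 were not called here either. RFC4 ranged from 55.7 to 126 CPM within the labelled group.

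The effect in U2OS CPT libraries differed from that in the HEK293T libraries labelled ATM KO for 23 of 46 genes, all more negative in U2OS, while 0 were more positive (interaction contrast in edgeR). Over all genes 8.08% were more negative and 7.35% more positive. The largest differences were in MCM6 (difference -1.97, SE 0.16, adjusted p = 5.88e-13) and MCM7 (difference -1.45, SE 0.16, adjusted p = 9.25e-10). Cell line and treatment both differ between these comparisons and cannot be told apart.

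**Figure D3:**
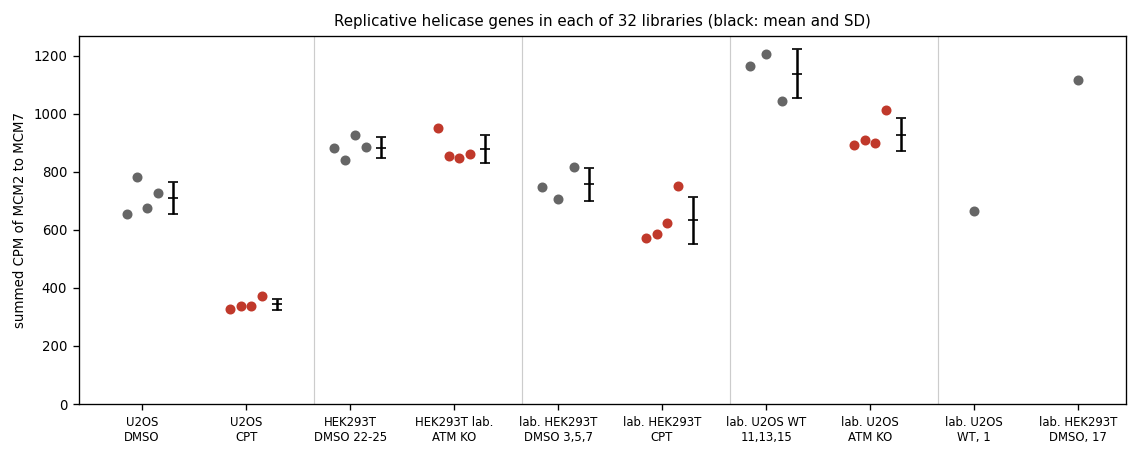
Summed CPM of MCM2 to MCM7 in each of the 32 libraries, controls in grey and treated or knockout-labelled libraries in red, with mean and SD in black; "lab." marks groups named by their label, and titles 1 and 17 are shown alone. The U2OS CPT libraries lie between 328 and 372 CPM, below the other 28 libraries.

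The libraries with titles 2, 4, 6 and 8, labelled HEK293T CPT, were compared with titles 3, 5 and 7, labelled HEK293T DMSO. All 7 had U2OS scores, and a grouping by these profiles, tried as an alternative, reads them as U2OS ATM KO against WT with title 1 as a further control. Of the 46 genes 8 were lower and 1 was higher, beside 5.55% and 4.89% of all genes, and the median log2 fold change was -0.19 (0.03 over all genes). RFC4 was at 53.7, 47.3, 49.2 and 47.7 CPM against 86.6, 104 and 85.4 CPM (log2 fold change -0.92, SE 0.16, adjusted p = 9.56e-05). GINS2 was at 21.99, 23.4, 23.5 and 26.4 CPM against 45.6, 39.5 and 39.7 CPM (log2 fold change -0.79, SE 0.18, adjusted p = 0.00212). PCNA was at 132, 113, 111 and 123 CPM against 190.1, 192 and 192 CPM (log2 fold change -0.69, SE 0.15, adjusted p = 0.00145). In all of these the groups stood well apart. LIG1 (-0.80, SE 0.18), CDT1 (-0.62, SE 0.20), CDC45 (-0.55, SE 0.17), MCM3 (-0.53, SE 0.16) and FEN1 (-0.52, SE 0.16) were lower as well. MCM10 went the other way, at 122, 107, 127 and 129 CPM against 77.7, 62.9 and 72.96 CPM (log2 fold change 0.76, SE 0.16, adjusted p = 0.000839). MCM6 (-0.19, SE 0.15) and MCM7 (0.24, SE 0.15) were not called. MKI67, CCNB1, TOP2A, CDKN1A and MDM2 were not called. The count of 8 lower genes was 4 without title 3, 6 or 7 and 5 without title 4, and the 1 higher gene became 2 without title 4, 7 or 8. GINS2, LIG1, PCNA, RFC4 and MCM10 were called whichever library was left out. With title 1 added 7 were lower and 2 higher, and with titles 3, 5, 7 and 17 as controls, the labels as deposited, 0 and 0. EIF4A2, which overlaps the 3′ end of RFC4 on the other strand, was lower here too (-0.47, adjusted p = 0.0459).

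Titles 10, 12, 14 and 16, labelled U2OS ATM KO, were compared with titles 11, 13 and 15, labelled U2OS WT. Their scores were those of HEK293T cells, and the grouping by profile reads them as HEK293T CPT against DMSO with title 17 as a further control. Of the 46 genes 19 were lower and 4 were higher, beside 16.3% and 15.8% of all genes. With the cutoff on fold change 2 were lower (LIG1 and POLD2), beside 4.63% of all genes. LIG1 was at 16.6, 19.02, 18.03 and 18.8 CPM against 46.2, 58.01 and 41.9 CPM (log2 fold change -1.41, SE 0.16, adjusted p = 1.03e-07), the largest change of the 46 in this comparison. POLD2, the second subunit of polymerase delta, was at 13.5, 16.6, 14.3 and 23.7 CPM against 37.4, 44.5 and 28.01 CPM (log2 fold change -1.07, SE 0.18, adjusted p = 5.08e-05). CDT1 was at 69.99, 76.9, 86.4 and 102 CPM against 148, 151 and 137 CPM (log2 fold change -0.78, SE 0.12, adjusted p = 2.72e-05). MCM7 (-0.73, SE 0.13), CDC45 (-0.79, SE 0.14), POLD1 (-0.74, SE 0.21) and POLD3 (-0.72, SE 0.13) fell with them. The groups did not overlap in any of these. The 4 higher genes were RRM2, at 155, 171, 151 and 184 CPM against 128, 90.1 and 97.9 CPM (log2 fold change 0.66, SE 0.13, adjusted p = 0.000307), DBF4, at 112, 108, 102 and 122 CPM against 79.3, 96.4 and 77.2 CPM (0.42, SE 0.12), GINS4, at 45.5, 42.1, 34.9 and 43.4 CPM against 31.97, 31.96 and 27.8 CPM (0.46, SE 0.15), and ORC6 (0.39, SE 0.14). Among them ORC6 alone overlapped between the groups. MCM6 was not called (-0.07, SE 0.12). The marker genes MKI67 (0.84), CCNB1 (1.02), TOP2A (0.34), CDKN1A (2.14) and MDM2 (1.14) were all higher on the log2 scale, while most of the called replication genes were lower. The count of 4 higher genes fell to 2 without title 10 or 15, and RRM2 alone of them was called whichever library was left out. With title 17 added 18 were lower and 5 higher, and with the labels as deposited 1 and 0. NACA (-0.71) and ENOSF1 (-0.75), which overlap the 3′ ends of PRIM1 and TYMS, were lower here.

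**Figure D4:**
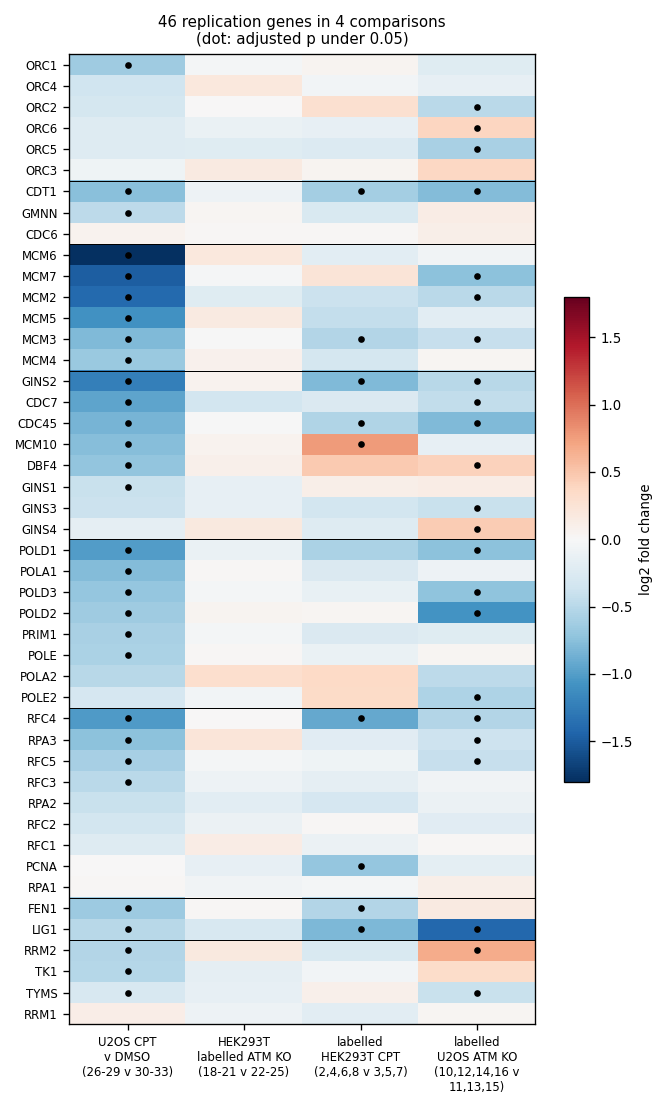
Log2 fold change of the 46 replication genes (rows, grouped by role between the lines) in 4 comparisons (columns); blue is lower and red higher in the treated or knockout-labelled libraries, and a dot marks an adjusted p under 0.05. In U2OS CPT 30 genes were lower and 0 higher, beside 15.3% and 16.6% of all genes. In titles 10 to 17, 19 were lower and 4 higher, beside 16.3% and 15.8%. In titles 1 to 8, 8 were lower and 1 higher, beside 5.55% and 4.89%. In the HEK293T libraries labelled ATM KO there were 0, beside 0.00543% and 0%.

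The differences between comparisons were tested directly. Against titles 1 to 8, whose libraries had U2OS scores, the U2OS CPT effect was more negative for 9 genes and more positive for 1, beside 7.84% and 8.39% of all genes. The helicase and its activators made up most of the 9: MCM7 (difference -1.72, SE 0.20), MCM6 (-1.61, SE 0.21), MCM10 (-1.53, SE 0.20), DBF4 (-1.18, SE 0.21), MCM2 (-1.01, SE 0.22), CDC7 (-0.70, SE 0.24) and MCM5 (-0.67, SE 0.23), with ORC2 (-0.60, SE 0.21) and RPA3 (-0.52, SE 0.19). PCNA was the exception (difference 0.69, SE 0.20, adjusted p = 0.00845): it fell in titles 1 to 8 and showed no detectable change in U2OS CPT libraries. The 9 became 5 without title 26. Against titles 10 to 17 the U2OS CPT effect was more negative for 16 genes and more positive for 1, beside 10.1% and 9.74% of all genes. MCM6 (difference -1.73, SE 0.18, adjusted p = 1.75e-10), RRM2 (-1.19, SE 0.18), DBF4 (-1.13, SE 0.19), TK1 (-0.85, SE 0.19) and FEN1 (-0.80, SE 0.18) differed in one direction, and LIG1 in the other (difference 0.91, SE 0.22, adjusted p = 0.00126). For CDT1 the U2OS CPT effect was -0.75 and that of titles 10 to 17 -0.78, with a difference of 0.02, SE 0.20 that did not pass. Since labels and scores of titles 1 to 17 disagree, these differences cannot be assigned to a treatment. If titles 10 to 17 are read by profile as HEK293T CPT, the dose differs as well. The study lists a lower CPT dose for HEK293T than for U2OS cells in its protein samples, and its RNA came from the same cells.

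In DMSO many replication genes stood at different levels in U2OS cells (titles 30 to 33) and HEK293T cells (titles 22 to 25). So did a large share of all genes. In U2OS cells 27 of the 46 genes were lower and 10 higher, beside 30.1% and 32% of all genes. With the fold cutoff 6 were lower (13%) and 1 higher (2.17%), beside 18.1% and 21.8% of all genes. Members thus passed that cutoff less often than genes at large. The counts by role that follow are to be read beside these shares. Scaled by library totals, which put the median of all genes at -0.21 on the log2 scale, 30 were lower and 5 higher. The shares of all genes with this scaling are not given here. These controls are shared with the comparisons of each line.

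Of the 3 licensing genes 2 were lower in U2OS cells, and CDC6 was not called (0.21, SE 0.11). CDT1 was at 41.003, 40.3, 34.3 and 37.5 CPM in U2OS and at 134, 133, 129 and 115 CPM in HEK293T cells (log2 fold change -1.73, SE 0.12, adjusted p = 7.9e-15), and its inhibitor GMNN was lower too (-1.08, SE 0.12). MCM10 was at 72.05, 74.1, 92.2 and 72.9 CPM against 219, 209, 218 and 211 CPM (log2 fold change -1.45, SE 0.11, adjusted p = 2.25e-13), and CDC7 at 36.3, 32.7, 30.01 and 30.9 CPM against 83.4, 101, 89.7 and 82.02 CPM (log2 fold change -1.44, SE 0.12, adjusted p = 2.6e-12). The lines did not overlap in any of these. Of the 6 origin recognition genes 5 were lower, from -0.50 (ORC2) to -0.92 (ORC6), and ORC4 was not called (0.12, SE 0.15). RPA2 (-1.47, SE 0.14), RFC3 (-1.34, SE 0.11) and RPA1 (-0.94, SE 0.15) were lower, while RPA3 was higher (0.50, SE 0.11) in these libraries. The call of RPA3 was not kept in every fit tried. In control-labelled titles 1, 3, 5 and 7, with U2OS scores, RPA3 was at 125, 119, 136 and 125 CPM. It stood above that, at 181, 145, 165 and 178 CPM, in titles 11, 13, 15 and 17, with HEK293T scores. Whether the RPA subunits differ in direction between the lines is thus not settled. The helicase differed less, with MCM2 (-0.69, SE 0.14), MCM7 (-0.41, SE 0.11) and MCM4 (-0.24, SE 0.10) lower and MCM3, MCM5 and MCM6 not called.

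Of the 4 members of nucleotide supply 3 were higher and 1 lower in U2OS cells, while of the 11 other genes of nucleotide synthesis 4 were lower and 0 higher (median log2 fold change -0.06). TYMS was at 624, 616, 603 and 521 CPM in U2OS and at 146, 123, 172 and 144 CPM in HEK293T cells (log2 fold change 2.03, SE 0.12, adjusted p = 5.89e-17). RRM2 was at 135, 148, 135 and 149 CPM against 80.8, 68.04, 81.96 and 77.3 CPM (log2 fold change 0.89, SE 0.11, adjusted p = 1.1e-08), TK1 was higher (0.36, SE 0.13), and RRM1 was lower (-0.67, SE 0.10). FEN1 was at 189, 161, 169 and 151 CPM against 95.1, 79.2, 108 and 98.8 CPM (log2 fold change 0.82, SE 0.12, adjusted p = 1.48e-07). TYMS, RRM2, FEN1 and RFC1 (0.58, SE 0.11) were the higher genes called at an adjusted p under 0.05 in each of the 17 fits tried, and of these TYMS alone passed the fold cutoff. In control-labelled titles 1, 3, 5 and 7, with U2OS scores, RFC1 was at 268, 338, 342 and 394 CPM. This overlapped titles 11, 13, 15 and 17, with HEK293T scores, at 285, 349, 275 and 246 CPM. TYMS, RRM2 and FEN1 did not overlap between these titles. ENOSF1, antisense to the 3′ end of TYMS, was not called (0.10).

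**Figure D5:**
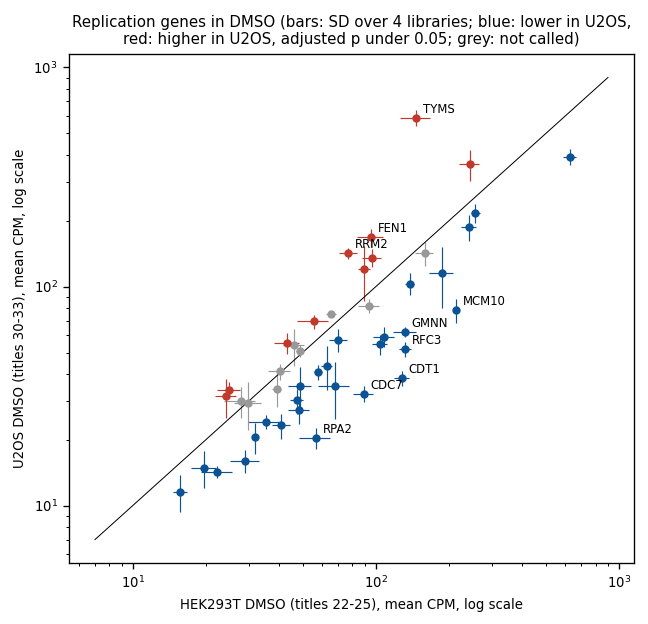
Mean CPM of the 46 replication genes in HEK293T DMSO (horizontal, log scale) and U2OS DMSO libraries (vertical, log scale), 4 libraries each, bars showing the SD; the line marks equal levels. TYMS lies far above the line and CDT1, MCM10, CDC7, RPA2, RFC3 and GMNN lie below it.

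Some of these counts may be shared with other genes. The last 1000 bases of 8 members overlap an exon of a gene on the other strand and those of 3 an exon of a gene on the same strand, in GENCODE release 29, and the strand setting of the counting is not given in the sources used here. In U2OS CPT libraries the partner of RFC4 (EIF4A2, -0.05) and that of GINS2 (GSE1, -0.13) were not called, whereas NACA, which overlaps PRIM1 on the same strand, was lower (-0.36). Pseudogenes named after 11 members, PCNA, RRM2, RPA2 and TYMS among them, are further rows of the table, and these members' counts are uncertain to that extent.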

How the data were processed

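Gene expression was measured by QuantSeq FWD 3′ RNA sequencing, which reads the end of each transcript, in 32 libraries. Per the study's methods the authors preprocessed the reads with the Lexogen pipeline for QuantSeq FWD libraries with molecular identifiers, and deposited one table of raw counts per gene. The genome build and the strand setting are not given in the sources used here. The table held 60107 genes, and 5 summary rows with 10.9% to 40.6% of each library's counts were left out, as were 92 spike-in rows. Library totals over genes were 1232674 to 6362433.

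Counts were fitted with edgeR 4.0.16 (R 4.3.3): TMM scaling, a filter that kept genes above 1 count in 2 or more libraries, the quasi-likelihood test, Benjamini-Hochberg adjustment over all genes tested, calls at an adjusted p under 0.05, and a further count with an absolute log2 fold change over 1. Each comparison was fitted on its own libraries, and differences of effects as interaction contrasts over the libraries of both comparisons. CPM in the text are scaled by TMM over all 32 libraries. A value "against" another gives the treated or labelled group first, libraries in title order.

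Samples were grouped by their labels. Labels of titles 1 to 17 went against the expression profile in 14 libraries, so these arms are named by label, and titles 1 and 17 entered alternatives only. No 2 libraries of an arm agreed within sampling noise. The study states that replicates were independent. The members and gene lists were chosen with earlier results of these data known. Values in every library are given for the called genes with the largest change in each role after CPT in U2OS cells, for the 3 called members with the smallest adjusted p in each direction in other comparisons, and for some further members. Alternatives were edgeR's likelihood ratio test, DESeq2 1.42.0, other scalings and filters, all libraries in one fit, other controls and leaving out each library. The tests were tried on simulated data. A first simulation of differences of effects used a fixed spread between libraries, not that fitted to these data. In it, most genes with a true log2 difference of 1 were not recovered. A difference of effects that did not pass is therefore not shown to be absent. No table of protein sequences was used.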

Additional observations from a re-analysis of the deposited data

Results flagged for a closer look

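In U2OS DMSO libraries GMNN was lowest in title 33, at 57.4 CPM, and MCM10 highest in title 32, at 92.2 CPM, each far from the other 3 libraries of its group by Dixon's test. In U2OS CPT libraries POLD1 was highest in title 29, at 10.2 CPM. These were 3 of 48 groups tested, and chance flags about 1 in 20.

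For 10 members the log2 fold change in U2OS CPT libraries differed from that in titles 1 to 8 by edgeR's interaction contrast. It was more negative for MCM7 (difference -1.72), MCM6 (-1.61), MCM10 (-1.53), DBF4 (-1.18), MCM2 (-1.01), CDC7 (-0.70), MCM5 (-0.67), ORC2 (-0.60) and RPA3 (-0.52), and more positive for PCNA (0.69). Because the labels of titles 1 to 8 went against the cell line of their profiles, the treatment behind these differences cannot be told from these data.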

How the results depend on the processing

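For U2OS CPT against DMSO, 28 members were lower in each of 15 fits that kept to the libraries of one line, those leaving out a library included; all libraries in one fit gave 17 lower, and the fold cutoff 7. In the HEK293T libraries labelled ATM KO 0 members were called in any setting by edgeR or DESeq2 (4 at an unadjusted p under 0.05 in edgeR's quasi-likelihood test). Titles 1 to 8 depended on the processing: in place of 8 lower there were 4 with all libraries in one fit, 0 with the labels as deposited, 5 with library totals, 0 with the fold cutoff, and 4 to 11 with a library left out. In place of 1 higher there were 2 with title 1 added, 2 with edgeR's filterByExpr, 0 with the labels as deposited, 0 with the fold cutoff, and 1 to 2 with a library left out. For titles 10 to 17, in place of 19 lower there were 7 in one fit, 1 with the labels as deposited and 2 with the fold cutoff, and 13 to 17 with a library left out. In place of 4 higher there were 0 in one fit, 0 with the labels as deposited, 0 with the fold cutoff, 2 to 5 with a library left out, and 6 with RLE size factors, library totals or filterByExpr. Between U2OS and HEK293T DMSO libraries, 6 were lower with the fold cutoff, and in place of 10 higher there were 5 in one fit, 6 with title 17 added, 5 with library totals and 1 with the fold cutoff. The difference from titles 1 to 8 was more negative for 5 to 10 members with a library left out. With all libraries in one fit, or by the labels as deposited, some groups held libraries with U2OS scores and libraries with HEK293T scores together. The part of this mixing in the shifts was not tested. The cause of the other shifts was not tested either, beyond the fewer samples or the added cutoff by construction. Scaling by library totals was chosen after seeing the data, and shares over all genes are not given here for the alternative fits. Of 676 alternative values for 44 named gene results, 651 kept direction and side of the threshold, 25 lost the call and 0 reversed. Most of these results were named for large or clearly called changes in these same data, and the alternatives refit largely the same libraries. The number kept therefore says little about the other members. No paired analysis was possible because the labels give the groups compared no shared replicate numbers; neighbouring titles were not taken as pairs, and whether they share a culture day was not tested.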
